A study of Arabidopsis thaliana with 64 samples.

Results

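The 150 genes described here had a higher mean in carbon-starved than in control leaves of wild-type Arabidopsis thaliana (WT). For 126 of them every starved WT library lay above every control WT library. The choice used these libraries and required a rise in WT, and the count was not made over all tested genes. The 150 stood out by how far the autophagy mutant atg7-2 lay behind. They were chosen from the deposited expression table, whose values, read counts scaled to the size of the library, the authors name RPM. A gene was taken as measured where 2 or more libraries had 1 RPM or more, which held for 19824 genes. For each gene the mean log2(RPM + 0.5) of control libraries was subtracted from that of starved libraries, and the difference D is the atg7-2 result minus the WT result. Genes with at least 5 RPM in each starved WT library and a starved WT mean above the control mean were ranked by D, and 6454 qualified (the candidates). The 150 with the lowest D were kept, after 2 named lipid transfer protein genes had been left out by the rule.

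The study asked how dehydration and loss of fixed carbon change leaf transcripts in lines altered in autophagy and brassinosteroid signalling. Leaves of plants grown for 4 weeks with 16 h of light were sampled after 5 days of starvation, after 4 h of dehydration or as controls. The 5 genotypes analysed were atg7-2, DSK2 RNAi, bes1-D, bri1-301 and WT, each with 2 starved, 3 dehydrated and 3 control libraries, 40 libraries in 15 groups. As background, atg7-2 is a mutant of the autophagy enzyme ATG7, DSK2 RNAi a knockdown of ubiquitin receptors that feed BES1 to autophagy, bes1-D a gain-of-function line of the brassinosteroid transcription factor BES1, and bri1-301 a weak allele of the brassinosteroid receptor. The labels give line names and do not say whether the libraries of a group came from separate plants, so the p-values measure the spread between these libraries, which may be technical. In whole leaves, fewer cells of a type and less RNA per cell cannot be told apart.

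Autophagy encloses cytoplasm in a membrane sac and carries it to the vacuole, where it is broken down and its amino acids, lipids and sugars are reused. ATG7 is the activating enzyme that lets the ubiquitin-like proteins ATG8 and ATG12 be joined to their partners, so autophagosomes do not form normally without it. In leaves kept without fixed carbon this recycling feeds respiration, and plants lacking it are known to turn yellow early in darkness.

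The libraries held 26634819 to 30375860 reads by the whole-read steps in the values, or 26.3 to 29.8 reads per RPM, and 3 reads correspond to 0.101 to 0.114 RPM. Libraries differed in how their values ran with transcript length. Relative to the mean library, log2 values changed per doubling of length by 0.376 and 0.460 in starved atg7-2, by 0.181 and 0.347 in starved DSK2 RNAi, by -0.506 and -0.929 in starved bes1-D and by -0.481 and -0.302 in starved WT. The 2 starved bri1-301 libraries stood apart from each other, with slopes of -0.439 and 0.437. Library 3 of dehydrated bes1-D (-0.501), of control bes1-D (-0.418) and of dehydrated WT (-0.568) also stood apart from their group. Leaf mesophyll markers summed to at least 19190 RPM in every control library, while of 6 seed and embryo markers none reached the level for testing.

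Both miRNA genes among the 150 and promoters of 3 members are shown first, because the miRNA genes changed with starvation in the genotypes where a test was possible, and because the promoters belong to a lipid transfer protein gene and to genes of sugar transport and sugar metabolism. The deposited values count reads of the primary miRNA transcript and not the mature miRNA. Mature sequences are from RefSeq on TAIR10.1, 5′ to 3′, with the seed (bases 2 to 8) in capitals, and the seeds are not shared.
ath-miR163 (chr1:24884359-24884382, plus strand): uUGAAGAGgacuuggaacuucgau
ath-miR172a (chr2:11942918-11942938, minus strand): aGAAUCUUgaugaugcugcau
As background, the known targets of miR163 are methyltransferases, and miR172 acts on APETALA2-type regulators of flowering time and plant age.

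The promoter windows are the 300 bases directly before the annotated gene start, read in the direction of the gene, with every ACGTG on either strand in capitals. ACGTG is the core of elements bound by many bZIP factors, among them those of abscisic acid signalling.
LTP2 (chr2:16127876-16128175, plus strand): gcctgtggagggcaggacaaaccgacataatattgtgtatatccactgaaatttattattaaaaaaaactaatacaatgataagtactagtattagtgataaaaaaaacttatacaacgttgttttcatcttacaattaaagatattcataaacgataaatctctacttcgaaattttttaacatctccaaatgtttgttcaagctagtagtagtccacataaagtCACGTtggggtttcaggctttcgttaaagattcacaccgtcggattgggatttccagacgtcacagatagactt
SWEET4 (chr3:10409978-10410277, minus strand): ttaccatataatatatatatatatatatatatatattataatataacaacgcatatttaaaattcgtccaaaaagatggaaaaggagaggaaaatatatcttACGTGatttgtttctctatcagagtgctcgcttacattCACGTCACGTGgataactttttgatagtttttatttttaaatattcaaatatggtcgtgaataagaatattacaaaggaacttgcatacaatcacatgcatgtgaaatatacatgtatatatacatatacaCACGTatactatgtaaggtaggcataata
GolS2 (chr1:21207237-21207536, plus strand): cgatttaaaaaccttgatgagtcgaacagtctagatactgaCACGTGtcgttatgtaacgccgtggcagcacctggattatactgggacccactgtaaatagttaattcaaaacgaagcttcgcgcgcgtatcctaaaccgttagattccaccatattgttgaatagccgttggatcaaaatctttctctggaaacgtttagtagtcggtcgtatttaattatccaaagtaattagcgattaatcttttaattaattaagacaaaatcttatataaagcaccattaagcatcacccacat
The windows held 1 match before LTP2, 5 before SWEET4 and 2 before GolS2, where a CACGTG palindrome gives a match on each strand. Over the whole list ACGTG was found before 47 of 150 genes (31.3%), 29.6% of candidates and 26.7% of all tested genes with a window. CACGTG, which contains it, was found before 9.33% of the 150, 9.64% of candidates and 8.28% of tested genes. CGTGTG, which can overlap both, was at 10.7%, 7.09% and 6.35%. For TTGAC, the core bound by WRKY factors, the shares were 56%, 52% and 50.3%. TATCCA, known from sugar-starvation promoters in rice, was at 18%, 17.8% and 16.9%. CGTGCG was at 1.33%, 1.98% and 1.91%, and the evening element AAAATATCT at 2%, 3.01% and 2.94%. All motifs were searched on both strands, and a match is a description of the letters only.

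The ATG7 transcript (symbol APG7, AT5G45900) was not lower in the mutant. It had 74.3 and 81.4 RPM in starved atg7-2, against 33.3 and 52.7 RPM in starved WT. In dehydrated atg7-2 it had 28.1, 32.7 and 17.8 RPM, against 19.7, 17.7 and 9.87 RPM in dehydrated WT. In control atg7-2 it had 17.3, 14.2 and 17.9 RPM, against 10.3, 11.6 and 12.0 RPM in control WT. The starved and the control libraries of atg7-2 each lay above those of WT, and the dehydrated ones overlapped. A level counted over a whole gene does not check which allele is present.

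By the way they were chosen, the 150 genes had D between -4.73 and -2.48 (median -2.84), while the median was -0.61 over candidates and -0.29 over all tested genes. At the limit, AT5G16450 (-2.49), AT4G14746 (-2.49) and IAA13 (-2.48) were the last inside, and AT5G38005 (-2.47), PGDH (-2.47) and AT4G34881 (-2.47) the first outside, so the border is not a gap. These values chose the genes and carry no test.

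The description that the genes were raised less in atg7-2 held for the smaller portion of them. In atg7-2, starved leaves lay above control leaves for 35 genes and below for 115, and 95 genes had both starved libraries below all 3 control libraries. These libraries chose the genes, and the counts were not made over all tested genes. The median starvation minus control difference of the 150 was -1.13 on the log2 scale in atg7-2 (candidates 0.37, all tested genes -0.52) and 1.75 in WT (candidates 0.79, all tested genes -0.26). Over 2-fold differences in atg7-2 were upward for 16 genes and downward for 81, while in WT 105 were over 2-fold up.

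**Figure D1:**
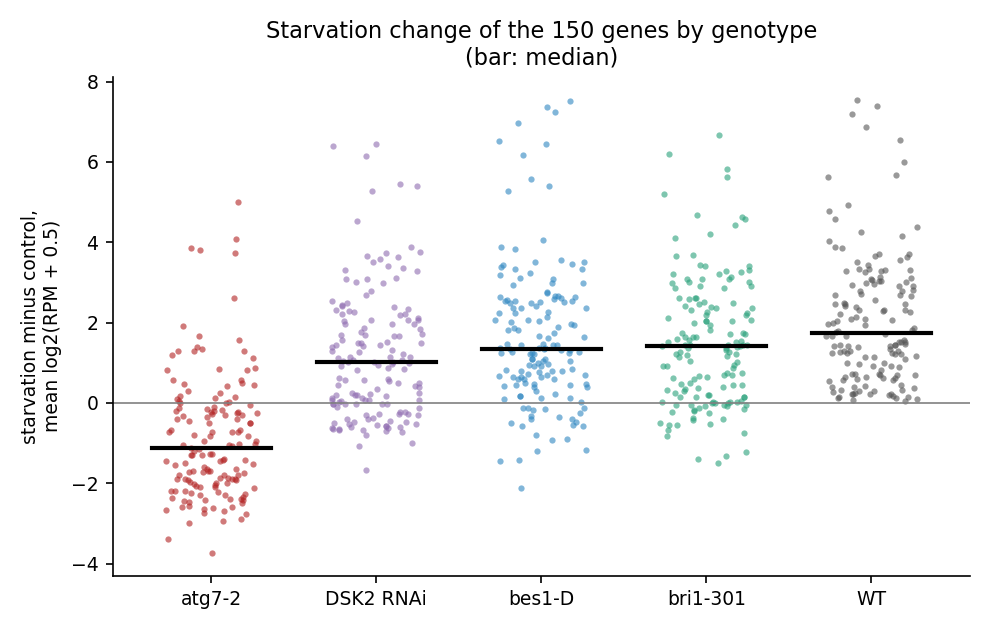
Starvation minus control difference in mean log2(RPM + 0.5) for each of the 150 genes (points) in 5 genotypes, with the median as a black bar. The median is -1.13 in atg7-2 and lies between 1.02 and 1.75 in the other genotypes; atg7-2 and WT values chose the genes.

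The gap was in starved leaves. The median atg7-2 minus WT difference was -2.71 in starved leaves, against -0.27 over all tested genes. In starved atg7-2 149 of 150 genes were lower, with no overlap between libraries. The choice used these libraries, and this count was not made over all tested genes. In dehydrated leaves 91 genes were lower and 59 higher in atg7-2, with 11 higher and 2 lower by more than 2-fold. In control leaves the median difference was 0.24 (0.03 over all tested genes), with 100 genes higher in atg7-2, 16 of them by over 2-fold, and 50 lower, 1 of them by over 2-fold. The control libraries of both genotypes entered D, and a low D favours genes that are high in control atg7-2. The counts in dehydrated and control leaves were not made over all tested genes. Starved atg7-2 had the lowest mean of the 5 genotypes for 144 genes. The highest starved mean was in bes1-D for 74 genes, in bri1-301 for 21, in DSK2 RNAi for 1, in atg7-2 for 1 and in WT for 53. Against the same starved WT libraries that the choice used, the median difference was -0.85 in DSK2 RNAi, with 146 genes lower, -0.40 in bri1-301 with 120 lower, and 0.03 in bes1-D with 74 lower. Over all tested genes the medians were -0.001, 0.13 and -0.20 in the same order.

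**Figure D2:**
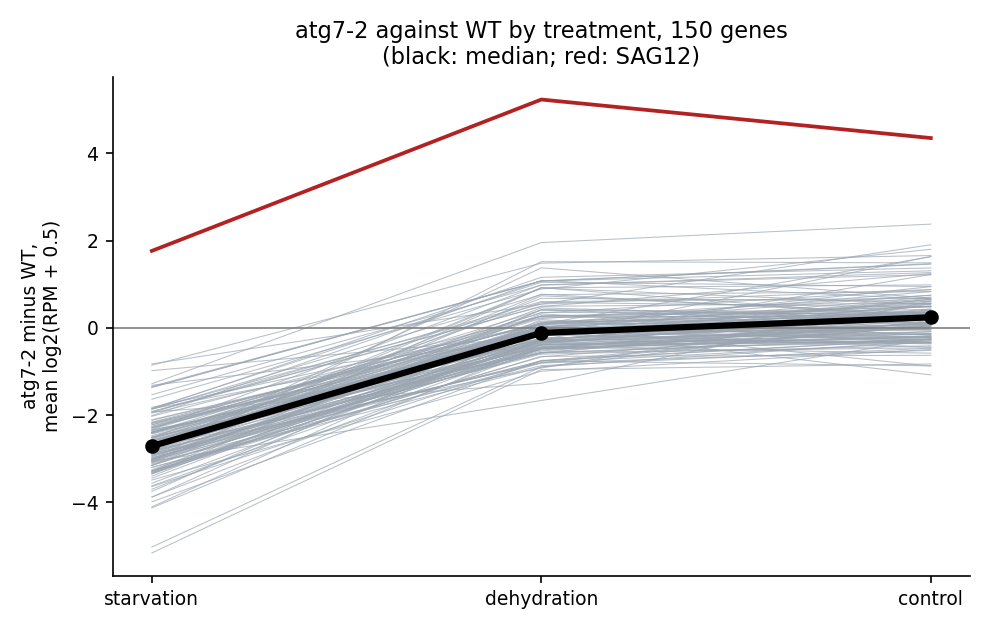
atg7-2 minus WT difference in mean log2(RPM + 0.5) of each of the 150 genes in starved, dehydrated and control leaves (thin lines), with the median in black and SAG12 in red. The median is -2.71 in starved and 0.24 in control leaves, and SAG12 is the only gene that lies above 0 in starved leaves. Starved and control values of both genotypes chose the genes.

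Transcript length ran with the choice. The 150 genes had a median annotated transcript of 1048 bases, and 68 of them (45.3%) were under 1000 bases, against a median of 1590 bases and 15.5% among candidates. In starved leaves the length slopes given above were positive in both atg7-2 libraries and negative in both WT libraries. When the length trend was taken out of every library, D of the 150 had a median of -2.09 and a highest value of -1.54, against a median of 0.01 over tested genes, and 148 of the 150 still lay above control in starved WT. Ranking anew on those values kept 86 of the 150, and the new list had a median transcript of 1871 bases. The part of length in the difference between starved atg7-2 and starved WT was not tested.

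**Figure D3:**
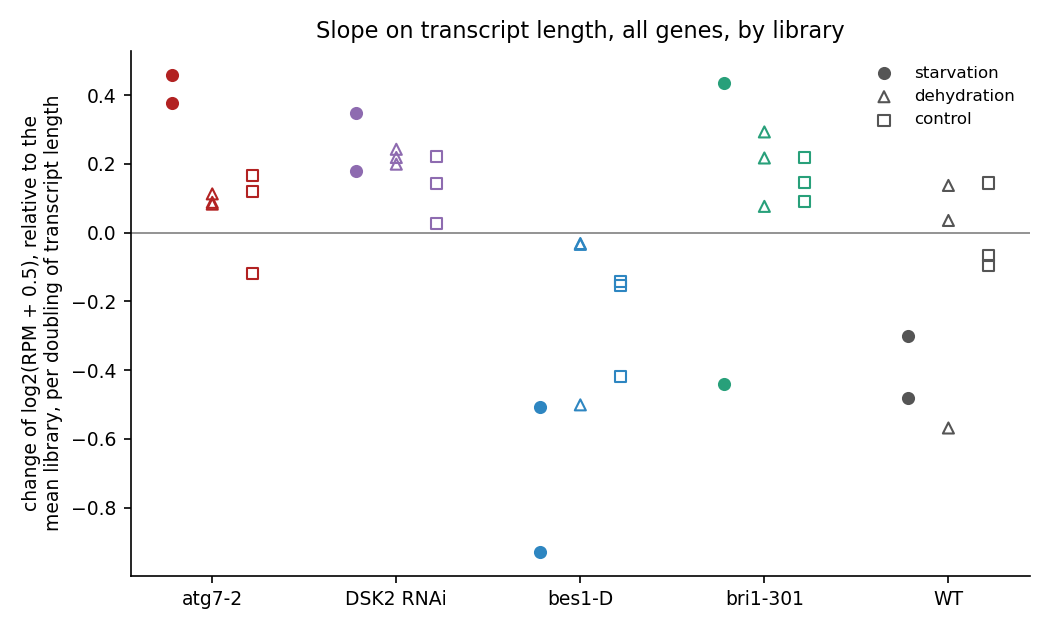
Slope of log2(RPM + 0.5), relative to the mean library, per doubling of transcript length over all genes, for each of the 40 libraries by genotype and treatment. Starved atg7-2 libraries sit at 0.376 and 0.460 and starved WT libraries at -0.481 and -0.302, while starved bri1-301 libraries lie on both sides of 0.

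Markers of other leaf cells also differed between these 4 starved libraries. Summed markers of mesophyll (6 genes) were 606.8 to 793.7 RPM in starved atg7-2, against 1380 to 1407 RPM in starved WT. Phloem markers (4 genes) were 52.7 to 62.3 RPM in starved atg7-2, against 127.8 to 130.1 RPM in starved WT. Guard cell markers (6 genes) were 38.3 to 47.6 RPM in starved atg7-2, against 60.3 to 68.6 RPM in starved WT. The same direction held for epidermis (6 genes; 1225 to 1248 RPM in starved atg7-2, 1456 to 1548 RPM in starved WT) and for root markers (5 genes; 11.2 to 13.6 RPM in starved atg7-2, 32.6 to 35.3 RPM in starved WT). Floral markers (7 genes; 25.5 to 29.3 RPM in starved atg7-2, 18.8 to 22.6 RPM in starved WT) and xylem markers (6 genes; 2.25 to 2.70 RPM in starved atg7-2, 0.303 to 0.655 RPM in starved WT) ran the other way. No marker of mesophyll, guard cell, phloem, epidermis, floral organ or root was at 0 in all libraries of either group. Of the 6 xylem markers 1 was at 0 in starved atg7-2 and 2 in starved WT. Some of these sums also moved with starvation within each genotype. Mesophyll markers summed to 21090 to 24540 RPM in control atg7-2 and 24520 to 31380 RPM in control WT. Xylem markers summed to 49.45 to 58.77 RPM in control atg7-2 and 31.62 to 65.74 RPM in control WT. A response of the marker genes and a change in cell makeup cannot be told apart here. The part of cell makeup in the 150 genes was not tested.

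GRP5 (AT3G20470, chromosome 3, 7140294 to 7141353, minus strand), a glycine-rich protein gene, had the lowest D, -4.73. It had 0.919 and 0.376 RPM in starved atg7-2 and 14.0, 15.2 and 13.8 RPM in control atg7-2, against 39.1 and 32.8 RPM in starved WT and 17.5, 12.4 and 25.5 RPM in control WT. Starved atg7-2 stood far below every other library, while the control libraries of the 2 genotypes overlapped. LTP2 (AT2G38530, chromosome 2, 16128176 to 16129399, plus strand), a lipid transfer protein whose promoter is shown above, had 19.5 and 16.4 RPM in starved atg7-2 and 54.2, 44.7 and 58.1 RPM in control atg7-2, against 662 and 652 RPM in starved WT and 87.3, 95.6 and 95.7 RPM in control WT. Starvation thus moved LTP2 in opposite directions in the 2 genotypes, without overlap in either. CYP86A2, a cytochrome P450 that hydroxylates fatty acids for cutin, had 10.4 and 6.83 RPM in starved atg7-2, against 150.1 and 114 RPM in starved WT. Its control levels were 97.2, 97.1 and 83.5 RPM in atg7-2 and 99.5, 97.3 and 122 RPM in WT, so that starved and control WT overlapped while starved atg7-2 lay far below control atg7-2. CYP86A2 overlaps annotated genes on the opposite strand, and reads of such pairs cannot be told apart where counting did not use strand, which the sources used here do not state.

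A pair of further lipid-transfer family genes ranked among the first 5. AT3G22620 had 5.31 and 16.4 RPM in starved atg7-2 and 5.01, 3.53 and 3.74 RPM in control atg7-2, against 64.6 and 99.5 RPM in starved WT and 1.03, 0.935 and 1.45 RPM in control WT. AT5G55410 had 0.477 and 1.16 RPM in starved atg7-2 and 1.25, 1.53 and 2.55 RPM in control atg7-2, against 8.52 and 12.7 RPM in starved WT and 0.652, 0.623 and 0.585 RPM in control WT. Both started higher in control atg7-2 than in control WT, without overlap, and were lower once leaves had been starved. The list also held KCS12 (D -2.97), an enzyme that elongates very long-chain fatty acids, GLTP3 (D -2.72) of the glycolipid transfer family and RWP1 (D -2.52), an acyltransferase of suberin. Of 14 tested genes on a list of lipid transfer and cuticle genes, 3 were candidates and LTP2 and CYP86A2 were among the 150, and the median D of the 14 was -1.67.

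The 3 senescence genes among the 150 are SAG29, SAG13 and SAG12, and each had its own pattern. SAG29 (AT5G13170, chromosome 5, 4181042 to 4183354, minus strand), a sugar efflux carrier of the SWEET family known from senescing leaves, had 151 and 129 RPM in starved atg7-2 and 9.48, 5.84 and 17.9 RPM in control atg7-2. In WT it had 296 and 392 RPM starved and 2.33, 0.935 and 1.55 RPM in control. Both genotypes raised the gene, and all control libraries of atg7-2 lay above those of WT. SAG13, a short-chain dehydrogenase, had 159 and 149 RPM in starved atg7-2 and 112, 126 and 136 RPM in control atg7-2, against 375 and 529.9 RPM in starved WT and 52.1, 79.7 and 32.7 RPM in control WT.

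SAG12 (AT5G45890, chromosome 5, 18613239 to 18614963, plus strand), a cysteine protease used as a marker of age-driven leaf senescence, was the only gene of the 150 that was higher in starved atg7-2 than in starved WT. It had 29.2 and 18.6 RPM in starved atg7-2, 188, 38.1 and 206 RPM in dehydrated atg7-2 and 19.9, 29.1 and 205 RPM in control atg7-2. In WT it had 8.15 and 5.20 RPM starved, 1.65, 2.25 and 4.30 RPM dehydrated and 1.1, 2.29 and 2.79 RPM in control. Its low D came from atg7-2 control leaves that already exceeded all WT libraries, with 1 of the 3 far above the others. SAG12 ends 211 bases before APG7 begins, on the same strand. Of 19 tested senescence genes on the list used, SAG12, SAG13 and SAG29 were among the 150, and the median D of the 19 was -0.18.

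SWEET4, another sugar transporter of the SWEET family, had 0.919 and 1.33 RPM in starved atg7-2 and 3.42, 3.36 and 3.60 RPM in control atg7-2, against 18.0 and 11.4 RPM in starved WT and 3.64, 1.14 and 5.89 RPM in control WT. GolS2, a galactinol synthase of the raffinose pathway that is induced by drought, had 2.48 and 2.05 RPM in starved atg7-2 and 12.8, 40.4 and 8.37 RPM in control atg7-2, against 16.0 and 19.3 RPM in starved WT and 9.37, 3.81 and 35.7 RPM in control WT. For GolS2 the starved atg7-2 libraries lay below all others of both genotypes, and the WT control libraries spanned those of starved WT. For SWEET4 they lay below control atg7-2 and starved WT and overlapped the lowest control WT library. Transporters of amino acids on the list were UMAMIT28 (D -2.95) and GDU4 (D -2.81), a glutamine dumper.

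Genes that regulate growth and transcription were also among the 150. AN3 (AT5G28640, chromosome 5, 10647467 to 10650066, minus strand), a transcriptional coactivator that promotes cell proliferation in leaves, had 1.60 and 1.44 RPM in starved atg7-2 and 13.3, 13.3 and 12.2 RPM in control atg7-2, against 41.9 and 28.8 RPM in starved WT and 12.8, 15.5 and 14.5 RPM in control WT. The control levels were alike and starvation parted them, downward in atg7-2 and upward in WT. ZAT7, a zinc-finger regulator of stress responses, had 2.08 and 2.02 RPM in starved atg7-2 and 9.58, 4.72 and 10.2 RPM in control atg7-2, against 20.3 and 15.3 RPM in starved WT and 6.11, 5.96 and 3.79 RPM in control WT. Other regulators were LBD1 (D -3.45), the heat shock factor HSFC1 (D -2.88), GATA6 (D -2.56), the abscisic acid receptor RCAR3 (D -2.98) and the Aux/IAA repressors SHY2 (D -3.04) and IAA13 (D -2.48).

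The 3 type-A response regulators on the list, ARR4, RR5 and ARR6, are induced by cytokinin and dampen its signalling. ARR6 had 0.647 and 0.478 RPM in starved atg7-2 and 2.61, 1.39 and 1.94 RPM in control atg7-2, against 10.2 and 6.27 RPM in starved WT and 2.33, 3.29 and 2.96 RPM in control WT. RR5 had 1.36 and 1.16 RPM in starved atg7-2 and 6.37, 5.13 and 6.80 RPM in control atg7-2, against 12.0 and 10.5 RPM in starved WT and 8.96, 6.09 and 6.71 RPM in control WT. ARR4 had 25.8 and 23.1 RPM in starved atg7-2 and 76.3, 95.0 and 105 RPM in control atg7-2, against 188 and 128 RPM in starved WT and 107, 111 and 85.3 RPM in control WT. In all 3 the starved libraries lay below control in atg7-2 and above control in WT, without overlap.

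Water channels of the plasma membrane (PIP proteins) gave 3 members. PIP2A had 287 and 209 RPM in starved atg7-2 and 1656, 1431 and 1673 RPM in control atg7-2, against 2243 and 2031 RPM in starved WT and 1847, 1611 and 2065 RPM in control WT. PIP2B had 74.3 and 58.1 RPM in starved atg7-2 and 169, 145 and 224 RPM in control atg7-2, against 372 and 375 RPM in starved WT and 163, 155 and 155 RPM in control WT. PIP1;4 had 44.5 and 49.3 RPM in starved atg7-2 and 275, 268 and 207 RPM in control atg7-2, against 288 and 305 RPM in starved WT and 222, 244 and 301 RPM in control WT. Starved atg7-2 lay below every other library of the 2 genotypes for all 3, while starved and control WT overlapped for PIP2A and PIP1;4.

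The primary transcripts of both miRNAs behaved differently from each other. MIR172a had 20.2 and 15.8 RPM in starved atg7-2 and 0.406, 0.713 and 1.36 RPM in control atg7-2, against 217 and 146 RPM in starved WT and 0.824, 0.623 and 0.757 RPM in control WT. It was among the genes that atg7-2 raised most, to a lower level than WT. MIR163 had 9.16 and 9.74 RPM in starved atg7-2 and 19.3, 24.8 and 26.6 RPM in control atg7-2, against 19.2 and 16.0 RPM in starved WT and 6.66, 7.27 and 7.30 RPM in control WT. Its control level in atg7-2 exceeded even starved WT.

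Metabolic enzymes included BSMT1, a methyltransferase that makes methyl salicylate and methyl benzoate. It had 5.21 and 9.05 RPM in starved atg7-2 and 1.69, 0.442 and 0.374 RPM in control atg7-2, against 73.6 and 133 RPM in starved WT and 0.996, 0.831 and 1.41 RPM in control WT. UGT72E1, which glucosylates phenylpropanoid aldehydes, had 31.9 and 22.1 RPM in starved atg7-2 and 94.2, 88.1 and 121 RPM in control atg7-2, against 227 and 213 RPM in starved WT and 88.8, 103 and 106 RPM in control WT. BSMT1 overlaps an annotated gene on the opposite strand, so its reads and those of that gene cannot be told apart unless counting used strand. Wall and other proteins among the 20 named members of lowest D were the peroxidase PRX52 (D -3.17), the hydroxyproline-rich PELPK1 (-3.17), the glycine-rich GRP3S (-3.04), the defensin-like PDF1.4 (-3.33), the aldo-keto reductase ChlAKR (-3.25), the RING protein WAVH1 (-3.21) and USPL1 (-3.09). The small peptide gene CDT1 (cadmium tolerance 1) had 1.40 and 1.54 RPM in starved atg7-2, against 22.4 and 16.1 RPM in starved WT. The 35 genes that atg7-2 did raise were led by AT1G19530 (5.01 on the log2 scale), AT3G20340 (4.08), MIR172a (3.86), the late embryogenesis abundant gene AT3G02480 (3.81), SAG29 (3.74) and BSMT1 (2.60).

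**Figure D4:**
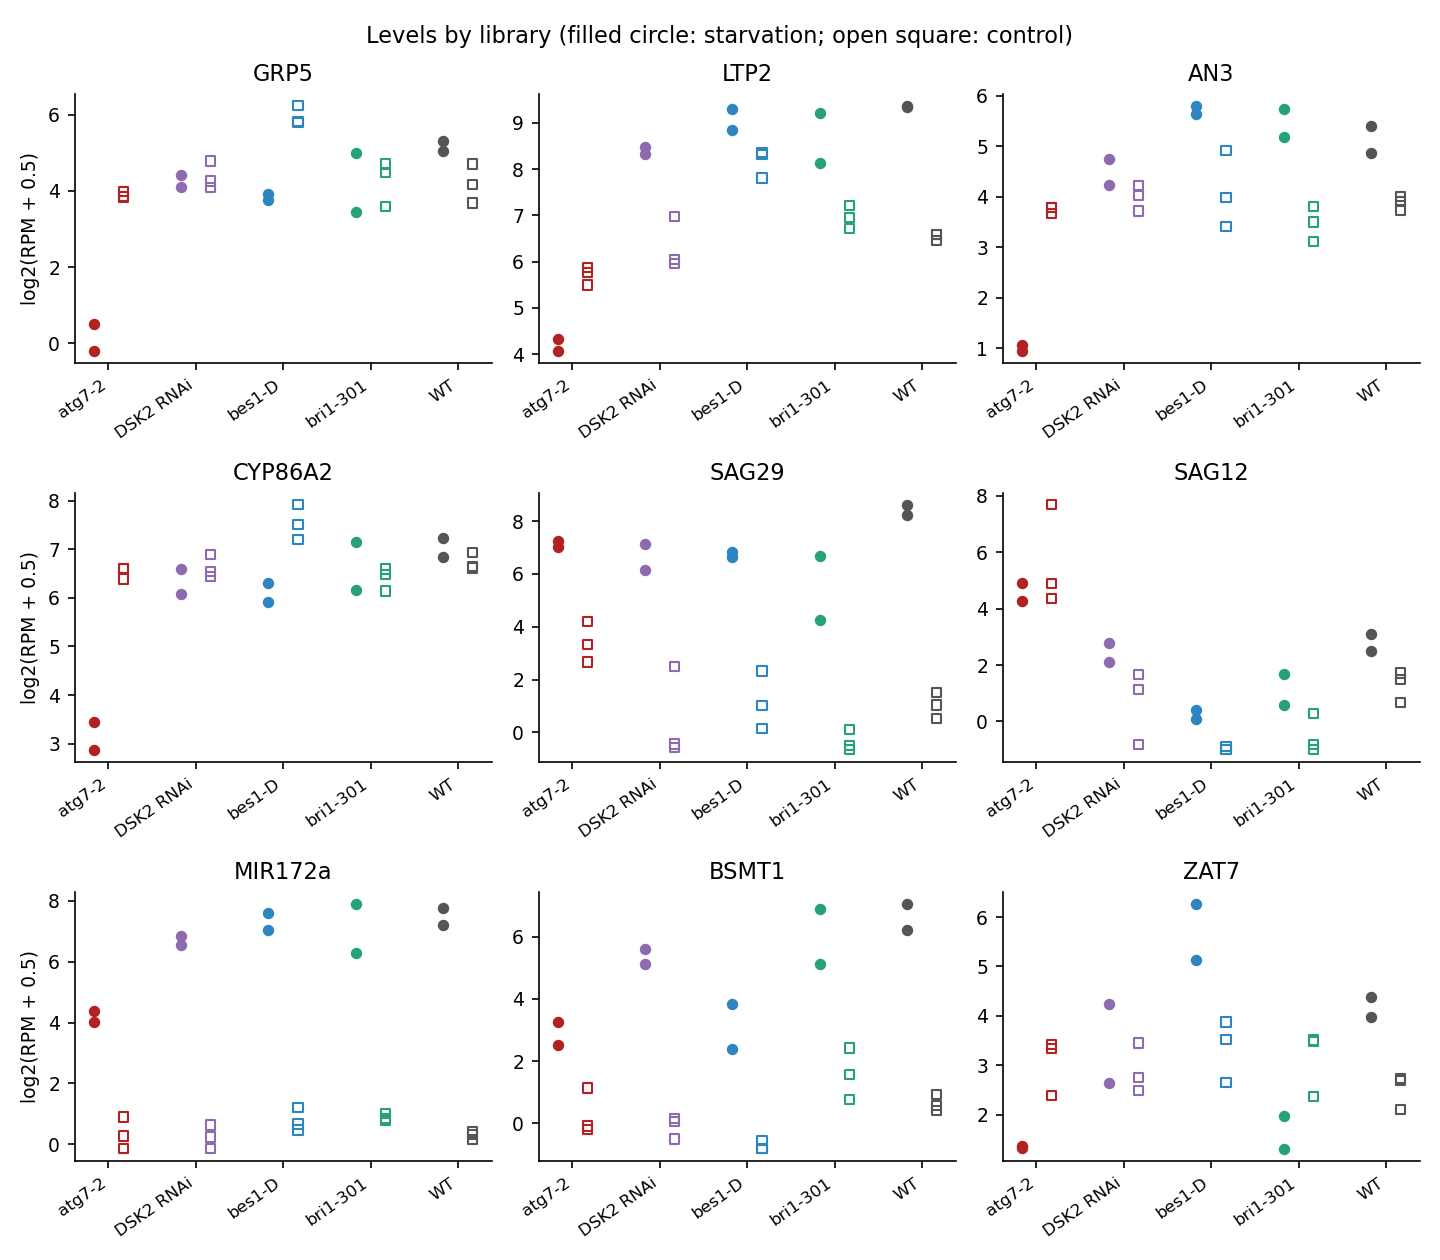
log2(RPM + 0.5) of 9 members in every starved (filled circles) and control (open squares) library of the 5 genotypes. By group means starved atg7-2 is the lowest of the starved groups for 7 of the 9 genes, and the exceptions are SAG29 and SAG12, which is highest in atg7-2.

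The starvation responses of DSK2 RNAi, bes1-D and bri1-301 did not enter the choice and were tested with limma over all 19824 genes, with p-values adjusted by the Benjamini-Hochberg method and a call at adjusted p under 0.05. The genes mostly rose there too. In DSK2 RNAi 80 of 150 genes were called higher (53.3%), against 24.9% of all tested genes and 58.1% of candidates, which like the 150 had to be raised in WT. In bes1-D 102 were called higher (68%), against 26.1% of tested genes and 61% of candidates. In bri1-301 92 were called higher (61.3%), against 21.8% of tested genes and 53% of candidates. Set beside the candidates, the share was lower in DSK2 RNAi and higher in the other lines, and in none was it far from theirs. In all 3 genotypes 72 genes (48%) were called higher, against 15.2% of tested genes and 38.6% of candidates. Another 39 (26%) were called higher in none, a share that was not counted over tested genes or candidates.

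Downward calls were few. They numbered 6 in DSK2 RNAi (4%), against 36% of all tested genes and 2.11% of candidates. They numbered 8 in bes1-D (5.33%), against 39.9% of tested genes and 2.03% of candidates. In bri1-301 there were 4 (2.67%), against 32.3% of tested genes and 0.806% of candidates, and without starved bri1-301 library 1 the counts there were 66 higher and 16 lower. The median log2 difference of the 150 was 1.02 in DSK2 RNAi, 1.35 in bes1-D and 1.41 in bri1-301, against -0.15, -0.34 and -0.16 over all tested genes. Under median-of-ratios scaling the median of all genes shifted by 0.12 in DSK2 RNAi, 0.28 in bes1-D and 0.15 in bri1-301.

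**Figure D5:**
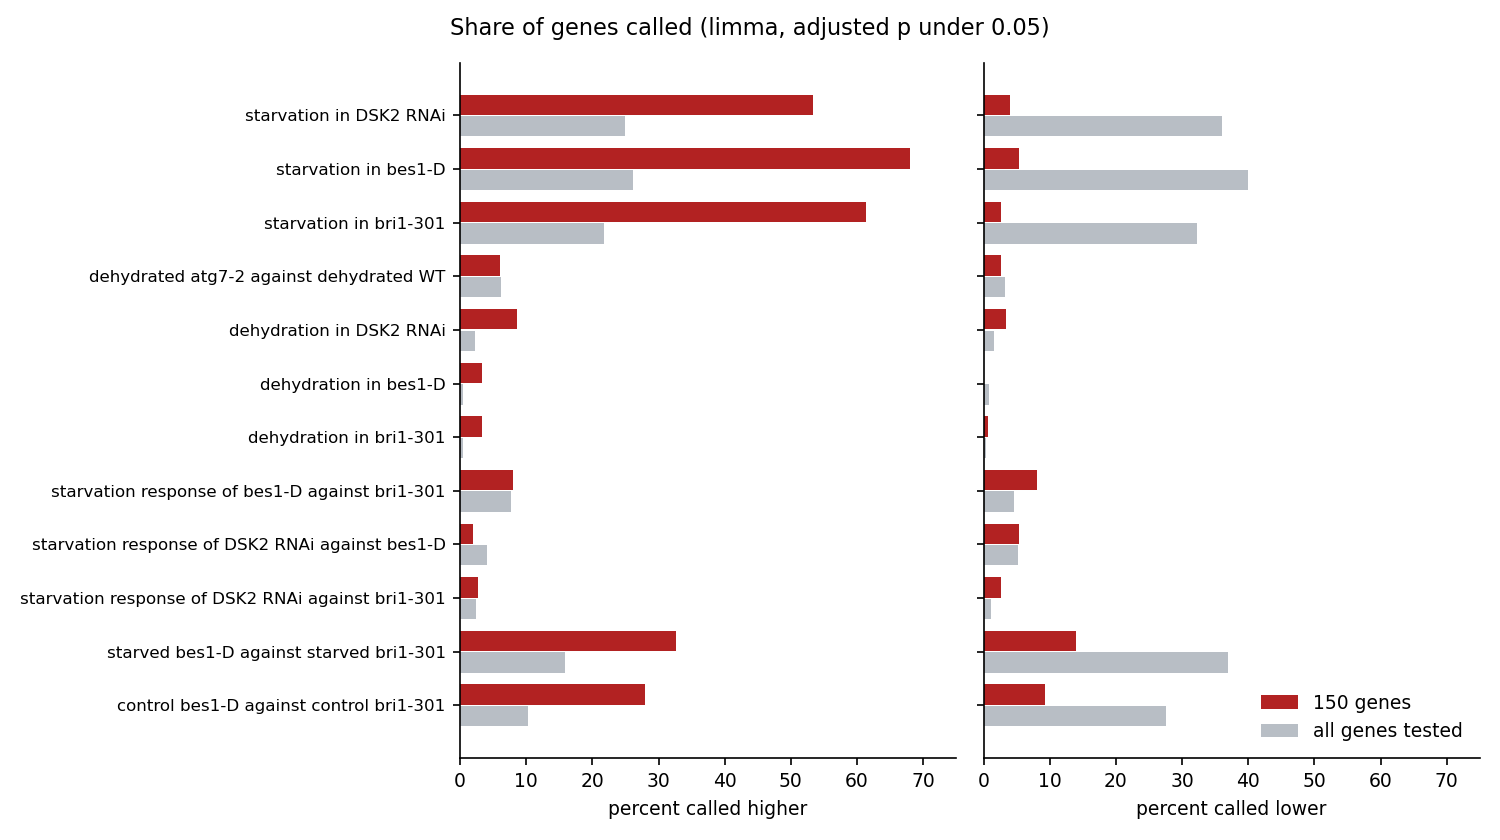
Percent of the 150 genes (red) and of all 19824 tested genes (grey) called higher or lower by limma at adjusted p under 0.05 in 12 comparisons that did not choose the genes. The upward starvation calls, at 53.3% to 68%, are the tallest bars, and dehydration bars are short. Candidates, which like the 150 had to be raised in WT, are not drawn. Their upward starvation calls were 58.1% in DSK2 RNAi, 61% in bes1-D and 53% in bri1-301.

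Several members rose by large differences in all 3 genotypes. MIR172a rose in starved DSK2 RNAi by a log2 difference of 6.44 ± 0.38 (SE, adjusted p = 4.61e-15), in bes1-D by 6.53 ± 0.38 (SE, adjusted p = 2.65e-15) and in bri1-301 by 6.21 ± 0.38 (SE, adjusted p = 1.57e-14). It had 92.8 and 113 RPM in starved DSK2 RNAi, 131 and 194 RPM in starved bes1-D and 238 and 77.2 RPM in starved bri1-301, while every control library of these lines was under 2 RPM. SAG29 rose by 6.14 ± 0.94 (SE, adjusted p = 1.52e-06) in DSK2 RNAi, 5.57 ± 0.94 (SE, adjusted p = 6.53e-06) in bes1-D and 5.83 ± 0.94 (SE, adjusted p = 4.60e-06) in bri1-301. BSMT1 rose by 5.46 ± 0.55 (SE, adjusted p = 5.62e-10) in DSK2 RNAi, 3.83 ± 0.55 (SE, adjusted p = 4.20e-07) in bes1-D and 4.42 ± 0.55 (SE, adjusted p = 4.93e-08) in bri1-301. AT1G19530 rose by 6.38 in DSK2 RNAi, 7.25 in bes1-D and 6.68 in bri1-301, and AT4G12735, which ranked 3 by D, by 4.52, 7.36 and 4.11. The largest fitted rise in bes1-D was that of AT3G20340, at 7.51, against 5.28 in DSK2 RNAi and 5.63 in bri1-301.

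Further members with known roles rose in each line. LTP2 rose by 2.07 ± 0.35 (SE, adjusted p = 5.81e-06) in DSK2 RNAi, 0.91 ± 0.35 (SE, adjusted p = 0.0218) in bes1-D and 1.72 ± 0.35 (SE, adjusted p = 1.01e-04) in bri1-301, but the bes1-D call was lost without control library 1 or starved library 2. SAG13 rose by 3.58 in DSK2 RNAi, 3.34 in bes1-D and 2.37 in bri1-301. SWEET4 rose by 1.41, 1.81 and 2.42, LBD1 by 3.10, 2.65 and 3.31, and ERF53, an AP2/ERF factor, by 3.62, 2.5 and 3.02, in the same order of lines. MIR163 rose by 1.28, 2.13 and 2.60. PIP2B rose by 1.02, 0.64 and 1.21, with no bes1-D call in a fit of the compared libraries alone or without starved library 1. DAU2, a membrane protein gene near 0 in all controls, had a log2 difference of 3.87 in DSK2 RNAi, 3.57 in bes1-D and 2.26 in bri1-301.

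Other members did not pass in every line. AN3 was called higher in bes1-D (1.62 ± 0.32 SE, adjusted p = 4.99e-05) and bri1-301 (1.99 ± 0.32 SE, adjusted p = 3.56e-06), while its difference in DSK2 RNAi was 0.50 ± 0.32 (SE, adjusted p = 0.176). ARR6 rose in all 3, by 1.69 in DSK2 RNAi, 2.49 in bes1-D and 3.69 in bri1-301. RR5 and ARR4 passed in bes1-D (0.96 and 1.47) and bri1-301 (2.05 and 1.59) and not in DSK2 RNAi (0.19 and 0.39). CDT1 passed in bes1-D (1.08) and bri1-301 (1.65) and not in DSK2 RNAi (0.95). SAG12 had differences of 1.77 in DSK2 RNAi, 1.22 in bes1-D and 1.65 in bri1-301 and passed in none, with adjusted p of 0.0587, 0.187 and 0.0871. PIP1;4 passed in none, and GolS2 only in DSK2 RNAi (1.67 ± 0.70 SE, adjusted p = 0.0388), a call lost in 7 of 16 alternatives.

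A few members fell in a line. GRP5 fell in starved bes1-D, with a log2 difference of -2.11 ± 0.40 (SE, adjusted p = 3.56e-05), with 13.0 and 14.7 RPM in starved bes1-D and 55.1, 56.1 and 74.7 RPM in control bes1-D. CYP86A2 changed by -1.43 ± 0.34 (SE, adjusted p = 4.42e-04) in starved bes1-D, a call that was lost once the length trend was removed. In DSK2 RNAi and bri1-301 neither gene passed (GRP5 -0.11 and -0.05; CYP86A2 -0.28 and 0.25). BTI3, a reticulon-like protein, fell, with a log2 difference of -1.16 ± 0.25 (SE, adjusted p = 1.99e-04), as did SHY2 with -0.89 ± 0.32 (SE, adjusted p = 0.0159), both in bes1-D, SHY2 with its call lost in 7 of 16 alternatives. ZAT7 changed by -1.49 ± 0.47 (SE, adjusted p = 0.00872) in bri1-301 and by 2.35 in bes1-D, upward. The bri1-301 call of ZAT7 was lost without starved library 2 and with only the compared libraries. GDU4 changed by -1.41 ± 0.41 (SE, adjusted p = 0.00441) in bri1-301, with the same losses and also with edgeR. MMZ2, a ubiquitin-conjugating enzyme variant, had -0.66 ± 0.28 (SE, adjusted p = 0.0449) in DSK2 RNAi and lost the call in 10 of 16 alternatives, and it overlaps AT1G70650 on the same strand. AT3G55920, a cyclophilin-like gene, was the only member called lower in all 3 lines, at -1.66 in DSK2 RNAi, -1.20 in bes1-D and -1.22 in bri1-301.

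Tests of the starvation response between lines found differences for few members. Between bes1-D and bri1-301, 12 of the 150 were called with a higher response in bes1-D (8%), against 7.64% of all tested genes and 10.7% of candidates, and 12 with a lower one (8%), against 4.51% and 2.46%. ZAT7 had the largest difference among the named genes, 3.84 ± 0.67 (SE, adjusted p = 1.29e-04). It had 34.5 and 76.8 RPM in starved bes1-D and 14.2, 11.0 and 5.74 RPM in control bes1-D, against 3.41 and 1.98 RPM in starved bri1-301 and 10.9, 10.7 and 4.67 RPM in control bri1-301. The starved libraries of the 2 lines lay on opposite sides of their controls. DAU2 was also higher in bes1-D (1.31 ± 0.30 SE, adjusted p = 0.00293), and GRP5 (-2.06 ± 0.57 SE, adjusted p = 0.0142), CYP86A2 (-1.69 ± 0.47 SE, adjusted p = 0.0167) and HSFC1 (-1.38 ± 0.45 SE, adjusted p = 0.0403) were lower. The call of HSFC1 was lost in 12 of 21 alternatives and that of CYP86A2 in 5, both of them also with the length trend removed. HSFC1 overlaps the noncoding AT3G24518 on the opposite strand. With only the compared libraries 10 members passed in place of 24, and without starved bri1-301 library 1 46 passed.

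AT1G09260, a DnaJ-domain gene, showed how far 2 lines could part. No read was counted in control libraries of either line, so its rise was at least 8.21-fold in starved bes1-D and at least 88.5-fold in starved bri1-301, against a floor of 3 reads per library. In starved bes1-D it averaged 0.866 RPM, against 9.02 RPM in starved bri1-301. The fitted difference between the responses was -2.76 ± 0.26 (SE, adjusted p = 4.26e-09) on the log2(RPM + 0.5) scale, which depends on the added 0.5.

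Between DSK2 RNAi and bes1-D, 3 members had a higher starvation response in DSK2 RNAi (2%, against 4.02% of all tested genes and 4.04% of candidates) and 8 a lower one (5.33%, against 5.17% and 5.73%). GRP5 (2.0 ± 0.57 SE, adjusted p = 0.0263) and UGT72E1 (1.18 ± 0.35 SE, adjusted p = 0.0323) were higher in DSK2 RNAi. The UGT72E1 call was lost in 11 of 21 alternatives and that of GRP5 in 7, and the count of 11 members became 26 without starved bes1-D library 1, 3 without starved bes1-D library 2, 5 without starved DSK2 RNAi library 1 and 7 without any 1 of starved DSK2 RNAi library 2, DSK2 RNAi control libraries 1 and 3 and bes1-D control library 1. UGT72E1 had 165 and 161 RPM in starved and 96.7, 83.6 and 62.3 RPM in control DSK2 RNAi, against 234 and 278 RPM in starved and 241, 260.3 and 361 RPM in control bes1-D. The starved bes1-D libraries fell inside or close to their own controls, while those of DSK2 RNAi lay above theirs. Between DSK2 RNAi and bri1-301, 4 members had a higher response in DSK2 RNAi (2.67%, against 2.37% of tested genes and 3.55% of candidates) and 4 a lower one (2.67%, against 1.07% and 0.356%). DAU2 was higher (1.61 ± 0.30 SE, adjusted p = 0.00122), and ARR6 (-2.0 ± 0.47 SE, adjusted p = 0.0128), RR5 (-1.86 ± 0.45 SE, adjusted p = 0.0138) and GLTP3 (-1.34 ± 0.36 SE, adjusted p = 0.0313) were lower. ARR6 had 6.34 and 11.8 RPM in starved DSK2 RNAi and 2.86, 1.61 and 2.75 RPM in control, against 76.3 and 106 RPM in starved bri1-301 and 5.39, 6.10 and 8.26 RPM in control. None of these 8 calls held under every alternative: without starved DSK2 RNAi library 1 the count was 1, and without starved bri1-301 library 2 it was 22.

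Dehydrated leaves, which the choice did not use, gave a direct test between atg7-2 and WT. In dehydrated atg7-2 9 of the 150 were called higher (6%), against 6.24% of all tested genes and 10.5% of candidates. Another 4 were called lower (2.67%), against 3.18% of tested genes and 0.759% of candidates. Median-of-ratios scaling shifted the median of all genes by -0.15, and the share of calls that were higher over all genes moved from 66.3% to 50.5%. SAG12 was higher by a log2 difference of 5.23 ± 0.72 (SE, adjusted p = 7.33e-05), the one member call that held under every alternative. MIR163 was higher by 1.48 ± 0.30 (SE, adjusted p = 0.00289), with 36.8, 47.9 and 21.8 RPM in dehydrated atg7-2, against 9.15, 9.02 and 19.6 RPM in dehydrated WT, and without overlap. GSTF3, a glutathione transferase, was higher by 1.08 ± 0.24 (SE, adjusted p = 0.00464) and SDR3, a short-chain dehydrogenase, by 1.07 ± 0.29 (SE, adjusted p = 0.0193). GDU4 was lower, with a log2 difference of -1.67 ± 0.37 (SE, adjusted p = 0.00498), and so was LTP2, with -0.96 ± 0.31 (SE, adjusted p = 0.0471). The LTP2 call was lost in 11 of 17 alternatives and that of SDR3 in 9. LTP2 had 83.4, 128 and 49.1 RPM in dehydrated atg7-2, against 168, 154 and 149 RPM in dehydrated WT. The count fell to 3 without dehydrated WT library 3, to 5 without atg7-2 library 1, to 6 without atg7-2 library 2 and to 8 without WT library 2.

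For dehydration itself limma called 18 of the 150 in DSK2 RNAi, 5 in bes1-D and 6 in bri1-301. The authors' deposited table marks genes as changed or not by a rule that the sources used here do not give, and it marks 48 of the 150 in DSK2 RNAi (18.8% of all genes with a mark), 18 in bes1-D (2.59%) and 40 in bri1-301 (8.25%). By limma, in DSK2 RNAi 13 were called higher (8.67%), against 2.25% of all tested genes and 4.35% of candidates, and 5 lower (3.33%), against 1.57% and 1.63%. GolS2 rose by 3.28 ± 0.62 (SE, adjusted p = 0.00265), with 48.6, 32.5 and 38.8 RPM in dehydrated DSK2 RNAi, against 0.818, 7.51 and 6.08 RPM in control. GASA1, a small gibberellin-regulated peptide, fell, with a log2 difference of -3.76 ± 0.79 (SE, adjusted p = 0.00554). It had 32.9, 34.5 and 41.1 RPM in dehydrated DSK2 RNAi, against 713, 376 and 453 RPM in control. The calls of GolS2 and GASA1 held under every alternative. Median-of-ratios scaling moved the share of all calls that were higher from 59% to 41.8%. SAG13 (2.05 ± 0.44 SE, adjusted p = 0.00625), the metal-binding-domain gene HIPP22 (1.61 ± 0.46 SE, adjusted p = 0.0428) and SWEET4 (1.49 ± 0.42 SE, adjusted p = 0.0405) also rose, and the cell wall enzyme XTH15 (-2.90 ± 0.76 SE, adjusted p = 0.0286) fell. The HIPP22 call was lost in 10 of 17 alternatives and that of SWEET4 in 7. Leaving out any 1 of 5 libraries brought the count from 18 to between 5 and 8: without control 1 8, control 2 6, dehydrated 1 5, dehydrated 2 8 and dehydrated 3 7.

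In bes1-D 5 were called higher under dehydration (3.33%), against 0.399% of tested genes and 0.604% of candidates, and 0 lower by limma, against 0.777% of tested genes and 1.07% of candidates. At an unadjusted p under 0.05 limma gave 7 lower, edgeR called 0 lower and DESeq2 1. Median-of-ratios scaling moved the share of all calls that were higher from 33.9% to 13.6%. LBD1 rose by 2.05 ± 0.39 (SE, adjusted p = 0.00469), HIPP22 by 1.87 ± 0.46 (SE, adjusted p = 0.0362), ARR6 by 1.17 ± 0.30 (SE, adjusted p = 0.0457) and PIP1;4 by 1.12 ± 0.27 (SE, adjusted p = 0.0347). The dehydration calls given for bes1-D and bri1-301 come from a fit that ignored the pairing by replicate number taken for these libraries. With the replicate number as a block, shared by all groups and not specific to bes1-D, ARR6 lost its call, at a difference of 1.17. In that fit 4 members were called higher. In bri1-301 5 were called higher (3.33%, against 0.434% and 0.589%) and 1 lower (0.667%, against 0.363% and 0.186%). Median-of-ratios scaling moved the share of all calls that were higher from 54.4% to 65.3%. SWEET4 rose by 1.94 ± 0.42 (SE, adjusted p = 0.0224) and PIP1;4 by 1.45 ± 0.27 (SE, adjusted p = 0.0119). PIP1;4 had 673, 734 and 569.8 RPM in dehydrated bri1-301, against 210.2, 203 and 325 RPM in control, without overlap. No member call in bes1-D or bri1-301 held under every alternative. In bes1-D the count was 0 without control 1, 1 without any 1 dehydrated library, 2 without control 2 and 3 without control 3, and in bri1-301 it was 0 without control 1, control 2, dehydrated 1 or dehydrated 2, 3 without dehydrated 3 and 19 without control 3.

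The bes1-D and bri1-301 lines, which raise and lower brassinosteroid signalling, were compared in control leaves too. Of the 150, 42 were higher in bes1-D (28%), against 10.2% of all tested genes and 10.6% of candidates, and 14 were lower (9.33%), against 27.5% and 33.7%. Added over both directions, the share called was close to that of all tested genes. GRP5 was higher in bes1-D by 1.7 ± 0.36 (SE, adjusted p = 7.74e-04), SDR3 by 1.7 ± 0.29 (SE, adjusted p = 7.40e-05), UGT72E1 by 1.43 ± 0.22 (SE, adjusted p = 1.57e-05) and CDT1 by 1.31 ± 0.39 (SE, adjusted p = 0.0113). UGT72E1 had 241, 260.3 and 361 RPM in control bes1-D, against 131, 88.6 and 98.2 RPM in control bri1-301, and the libraries did not overlap. XTH15 was lower in bes1-D, with a log2 difference of -3.33 ± 0.76 (SE, adjusted p = 0.00164), RTFL21, a small growth-limiting peptide gene, with -2.93 ± 0.37 (SE, adjusted p = 7.39e-07), GASA1 with -2.33 ± 0.79 (SE, adjusted p = 0.0223) and ChlAKR with -1.83 ± 0.37 (SE, adjusted p = 5.06e-04). GASA1 had 116, 42.8 and 94.5 RPM in control bes1-D, against 591, 941 and 109.9 RPM in control bri1-301, with overlap at the lowest bri1-301 library, and its call was lost in 6 alternatives. Median-of-ratios scaling shifted the median of all genes by 0.35, moved the share of all calls that were higher from 27% to 60.7%, and gave 56 members higher and 9 lower. Of the calls, 22 higher and 7 lower held under every alternative.

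In starved leaves 49 of the 150 were higher in bes1-D than in bri1-301 (32.7%), against 15.9% of all tested genes and 23.4% of candidates, and 21 were lower (14%), against 37% and 30.4%. ZAT7 (4.06 ± 0.52 SE, adjusted p = 3.43e-07), SDR3 (2.46 ± 0.36 SE, adjusted p = 3.02e-06), PDF1.4 (1.65 ± 0.52 SE, adjusted p = 0.00887) and GATA6 (1.54 ± 0.35 SE, adjusted p = 6.26e-04) were higher. GASA1 (-3.08 ± 0.97 SE, adjusted p = 0.00916), XTH15 (-2.97 ± 0.94 SE, adjusted p = 0.00954), BSMT1 (-2.90 ± 0.60 SE, adjusted p = 2.78e-04) and FHL, a carrier of phytochrome A into the nucleus (-2.19 ± 0.36 SE, adjusted p = 1.60e-05), were lower. BSMT1 had 13.7 and 4.71 RPM in starved bes1-D, against 118 and 34.1 RPM in starved bri1-301. These counts rest on libraries that stood apart: fitting only the compared libraries left 0 members, leaving out starved bri1-301 library 1 gave 74 members higher and leaving out library 2 gave 20. Median-of-ratios scaling shifted the median of all genes by 0.42, moved the share of all calls that were higher from 30% to 54.9%, and gave 71 members higher and 16 lower. The part of length, whose slopes in these starved libraries are given above, was not tested.

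Several features that the rule did not use recurred among the 150, and these were picked out after the values were seen and are given without a test. Products described as uncharacterized or hypothetical made up 22.7% of the list (34 genes), against 6.06% of tested genes, and 91 members had no symbol. There were 141 protein-coding genes, 2 miRNA genes, 5 ncRNA and 2 lncRNA genes. The AP2/ERF family gave 4 members of 20 candidates, AT1G36060, AT1G64380, AT4G28140 and ERF53, with a median D of -1.36 over the 20. Lipid-transfer family genes gave 5 of 12 candidates (median D -1.18), glycine-rich protein genes 6 of 22 (-1.26), water channels of the PIP family 3 of 6 (-2.47), response regulators 3 of 6 (-1.29) and ribosomal proteins 3 of 71 (-1.47). Of all 6454 candidates, whose median D was -0.61, 150 were kept. D chose the list, so the family medians of D are a description and no support.

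A cluster of 4 uncharacterized genes, AT5G44575, AT5G44578, AT5G44582 and AT5G44585, lies within 12657 bases of chromosome 5 on 1 strand. All 4 were among the 150, with D of -3.70, -3.41, -2.93 and -3.23. AT5G44578 rose in starved DSK2 RNAi by 1.5, in bes1-D by 2.63 and in bri1-301 by 1.16. AT5G44585 rose in DSK2 RNAi (1.97) and bes1-D (3.11) and had 0.01 in bri1-301, AT5G44582 passed only in bes1-D (1.44) and AT5G44575 in none. Near-identical copies could share reads, and the sources used here do not say how such reads were assigned. Over the list 8 pairs of members were direct neighbours in gene order, among them the lipid-transfer genes AT3G22600 and AT3G22620, and 5 pairs overlapped. In all 38 members overlap another annotated gene, 33 on the opposite strand, whose reads cannot be told apart from those of the partner unless counting used strand.

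Of 22 pathway lists, only the senescence list and the lipid transfer and cuticle list held members. The 150 are a small share of the 19824 tested genes, so short lists without a member are not a result about those pathways. For the calls below, 24.9% of all tested genes were higher and 36% lower in starved DSK2 RNAi. These shares were 26.1% and 39.9% in bes1-D, and 21.8% and 32.3% in bri1-301. Sugar starvation genes had 15 tested genes with a median D of 0.79, and 13 were called higher in starved DSK2 RNAi, 10 in bes1-D and 10 in bri1-301, none lower. Genes of branched-chain amino acid breakdown had a median D of 0.52 and those of peroxisomal beta-oxidation 0.76, both with higher differences in atg7-2 than in WT. Autophagy genes (26 tested) had a median D of -0.04, with 11 higher and 3 lower in DSK2 RNAi, 18 and 2 in bes1-D, and 5 and 2 in bri1-301. Genes of abscisic acid and dehydration (30 tested) had a median D of -0.52, with 23 higher and 4 lower in DSK2 RNAi, 20 and 7 in bes1-D, and 22 and 4 in bri1-301. Photosynthesis genes (38 tested, none of them a candidate) had a median D of -1.08, and all 38 were called lower in each of the 3 lines. Senescence genes (19 tested) were higher and lower in starved DSK2 RNAi for 15 and 1, in bes1-D for 14 and 1, and in bri1-301 for 11 and 2. Lipid transfer and cuticle genes (14 tested) were higher and lower for 2 and 6, 1 and 10, and 3 and 4 in the same order.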

How the data were processed

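Leaf RNA was measured by RNA-seq in 40 libraries with a column in the deposited table, and 24 further samples in the labels were not analysed here. Per the file headers, the authors call their deposited signal per gene RPM, and its columns sum to 985308 to 1023136. The submitters' processing notes name the build TAIR10 and the tools GSNAP and DESeq2. The sources used here do not state how reads of overlapping or similar genes were assigned or whether strand was used. All values were whole multiples of 1 read (tolerance 0.01 reads; 100% of values), so whole reads were recovered for the count-based alternatives. Of 33366 lines 4591 without a gene identifier were left out, leaving 28775 genes, of which 28009 matched the RefSeq TAIR10.1 gene table used for names, lengths and positions. The authors' build is given as TAIR10, and coordinates are of TAIR10.1. Another 20 columns of authors' averages were not used.

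The 19824 genes that reached 1 RPM in 2 or more libraries were fitted as log2(RPM + 0.5) by group with limma 3.58.1 in R 4.3.3, with a mean-variance trend and 25 residual degrees of freedom; the scale understates changes of low genes. Two-sided p-values were adjusted over all tested genes of a comparison by the Benjamini-Hochberg method, with calls at 0.05. The 12 comparisons tested use no library that chose the genes, though the spread rests on all 40 libraries, and several of the 12 share libraries with each other. The unit had been assumed to be RPM with a fixed sum, which did not change the test. Alternatives were other pseudocounts (1 and 0.1), filters and scalings, edgeR 4.0.16 and DESeq2 1.42.0 on recovered reads, a replicate block, removal of the length trend, fits of the compared libraries only, and each library left out in turn. Same-numbered dehydrated and control libraries deviated together in bes1-D (r 0.160 to 0.272) and bri1-301 (r 0.208 to 0.456), so there the numbers were taken to pair the libraries. The main fit ignored this pairing. The replicate block was 1 effect per replicate number shared by all groups, so no fit paired libraries within a line. Starved and control bri1-301 libraries, with r 0.3535 over replicates 1 and 2, were not taken as paired, although that r exceeded those of bes1-D.

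Named genes are the 20 members of lowest D with a symbol, members on the gene lists, the 3 genes on each side of the limit, ATG7, adjacent members with a symbol and, per comparison, the 4 called members of largest change in each direction with a symbol and at least 5 RPM in the higher group. Other genes were named after their values were seen. The members and lists were chosen with earlier results of these data known. The SE values come from limma's estimate of the spread between libraries, and the floors cover counting error only. Python 3.11.15, pandas 2.3.3, numpy 2.4.6 and matplotlib 3.10.9 were used, and the fit was tested on simulated data.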

Additional observations from a re-analysis of the deposited data

Results flagged for a closer look

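The starvation response differed between lines, by limma's test of the difference itself with Benjamini-Hochberg adjustment, for 24 of the 150 genes between bes1-D and bri1-301, for 11 between DSK2 RNAi and bes1-D, and for 8 between DSK2 RNAi and bri1-301. Higher and lower calls were 8% and 8% of members in the first, against 7.64% and 4.51% of all tested genes. In the second they were 2% and 5.33%, against 4.02% and 5.17%. In the third they were 2.67% and 2.67%, against 2.37% and 1.07%. For bes1-D against bri1-301 the log2 difference in response was 3.84 for ZAT7 and 1.31 for DAU2, which responded more upward in bes1-D, and -2.06 for GRP5, -1.69 for CYP86A2 and -1.38 for HSFC1. For DSK2 RNAi against bes1-D it was 2.00 for GRP5 and 1.18 for UGT72E1. For DSK2 RNAi against bri1-301 it was 1.61 for DAU2, -2.0 for ARR6, -1.86 for RR5 and -1.34 for GLTP3. Of these calls, that of HSFC1 was lost in 12 of 21 alternatives, UGT72E1 in 11, GRP5 (DSK2 RNAi against bes1-D) in 7, GLTP3 in 7 and CYP86A2 in 5.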

How the results depend on the processing

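The upward starvation calls in DSK2 RNAi, bes1-D and bri1-301 kept their counts within 1.5-fold under each alternative, and of these calls 61 of 80, 77 of 102 and 66 of 92 held under every alternative. Counts of called members that moved further were as follows. For dehydrated atg7-2 against WT (13 called) there were 8 with median-of-ratios scaling, 21 with the length trend removed, 8 with edgeR, 3 with only the compared libraries and 3 without the 3 libraries apart in length slope, an alternative chosen after seeing the data. For dehydration in bes1-D (5) there were 3 with a pseudocount of 0.1, 2 without a filter, 2 with median-of-ratios scaling, 1 with edgeR, 0 with only the compared libraries and 2 without the 3 libraries. For dehydration in bri1-301 (6) there were 2 with median-of-ratios scaling, 11 with the length trend removed, 3 with edgeR and 16 with DESeq2. For the starvation response of bes1-D against bri1-301 (24) there were 13 with edgeR and 10 with only the compared libraries. For DSK2 RNAi against bes1-D (11) there were 17 with a pseudocount of 1, 21 with median-of-ratios scaling, 7 with edgeR, 24 with DESeq2 and 22 without the 3 libraries. For DSK2 RNAi against bri1-301 (8) there were 13 with the length trend removed, 5 with edgeR and 1 with only the compared libraries. For starved bes1-D against bri1-301 (70) only the compared libraries gave 0, where limma had 40 at an unadjusted p under 0.05. The cause of these moves was not tested. Where dehydration counts were 0, limma had 45 members at an unadjusted p under 0.05 in bes1-D with only the compared libraries and 28 without control 1, and 30 to 43 in bri1-301. Leaving out 1 library at a time gave 73 to 88 called members for starvation in DSK2 RNAi, 88 to 109 in bes1-D and 82 to 101 in bri1-301. It gave 3 to 15 for dehydrated atg7-2 against WT, 5 to 15 for dehydration in DSK2 RNAi, 0 to 3 in bes1-D and 0 to 19 in bri1-301. It gave 18 to 46, 3 to 26 and 1 to 22 for the 3 differences of response in the order above, 41 to 91 for starved and 33 to 55 for control bes1-D against bri1-301. Membership of the 150 was kept by 123 to 139 when a library was left out and by 86 with the length trend removed. With the replicate block no total of called members moved by over 1.5-fold, but some counts in 1 direction did. The higher and lower calls with the block were 82 and 3 (80 and 6 without it) for starvation in DSK2 RNAi, 106 and 8 in bes1-D, 96 and 4 in bri1-301, 9 and 7 (9 and 4 without it) for dehydrated atg7-2 against WT, 4 and 0 for dehydration in bes1-D, 4 and 2 (5 and 1 without it) in bri1-301, and 5 and 11 (3 and 8 without it) for the response of DSK2 RNAi against bes1-D. Among the named members MMZ2 (starvation in DSK2 RNAi) and ARR6 (dehydration in bes1-D) lost their calls under it. Outside dehydration in bes1-D and bri1-301 the numbers were not taken to pair libraries. Same-numbered libraries also deviated together for starvation in bri1-301 (r 0.3535, with 2 starved libraries). For dehydration in DSK2 RNAi r was 0.0241, 0.00386 and 0.307 by replicate number. In the other comparisons checked r was negative, and pairing there rests on a shared number alone. Of 1094 alternative values of the 64 named member results, 897 stayed called, 197 did not pass and 0 changed sign. A level under 0.101 to 0.114 RPM is within 3 reads.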
